A study of Mus musculus with 8 samples.

Results

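The CDK inhibitor genes are the 7 mouse genes Cdkn1a, Cdkn1b, Cdkn1c, Cdkn2a, Cdkn2b, Cdkn2c and Cdkn2d, taken by name from a table of 52636 genes measured by RNA-seq in esophageal organoids. Organoids are small structures that epithelial cells form in a basement membrane gel, here from the esophagus of wild-type mice. The 8 libraries fell into 4 groups of 2, and all had the same culture of 13 days and the same treatment time of 72 h, with ligands and inhibitor renewed every 24 h. One group received TGFb1 at 1 ng/ml with BMP4 at 20 ng/ml, and another TGFb1 alone at the same dose. A further group received BMP4 at the same dose with A8301 at 500 nM, and the control group received A8301 alone at the same dose. A8301 is a small-molecule inhibitor of the type I receptors of TGFb, and the 2 groups that received it are called BMP4 with inhibitor and inhibitor. No inhibitor is listed for organoids with TGFb1. A TGFb1 group set against an inhibitor group therefore differs by its ligand and also by the lack of A8301. The labels give no age for the mice, and they do not say whether replicate libraries stem from different animals, so p-values measure a spread between libraries that may be technical.

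CDK inhibitors are small proteins that hold cyclin-dependent kinases in check and so brake the entry of a cell into DNA replication. The Ink4 proteins, made from Cdkn2a, Cdkn2b, Cdkn2c and Cdkn2d, bind the kinases Cdk4 and Cdk6 and keep D-type cyclins from activating them, which leaves RB proteins free to hold E2F factors. The Cip/Kip proteins, made from Cdkn1a, Cdkn1b and Cdkn1c, bind cyclin-kinase complexes more widely, above all those of Cdk2. TGFb is a classic stop signal for epithelial cells, and in cultured keratinocytes its SMAD proteins act on the Cdkn2b and Cdkn1a promoters while Myc opposes them. In squamous epithelium, cells leave the cycle as they leave the basal layer.

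Cdkn2a and Cdkn2b lie side by side on mouse chromosome 4, both on the minus strand. In the GRCm38 annotation, Cdkn2a (ENSMUSG00000044303) spans bases 89274471 to 89294653 and Cdkn2b (ENSMUSG00000073802) spans 89306299 to 89311039, which leaves 11645 bases between them. The Cdkn2a gene has 2 annotated transcripts. One starts at 89282192 and encodes the Ink4a protein, and the other starts at 89294653 and encodes Arf, which acts on the p53 regulator Mdm2 and is no CDK inhibitor. The gene-level values cannot tell these transcripts apart. Cdkn2c lies far away on the same chromosome, from 109660876 to 109667189 on the minus strand, and the other 4 genes lie on chromosomes 6, 7, 9 and 17. Promoter sequences of 300 bases were read from RefSeq (GRCm38.p6) from 250 bases before the annotated start to 50 after it, and 6 of the 7 genes matched, all but Cdkn1c. Those of Cdkn2b and of both Cdkn2a starts are shown because these neighbours had the largest differences between groups, and 1 of the 2 listed for Cdkn1a, at the start of transcript Cdkn1a-201, because Cdkn1a is the other gene known as a SMAD target. Capitals mark CAGAC or its reverse complement GTCTG, the short element that SMAD proteins bind, and GGCGCC, a GC-rich SMAD motif. All are written 5′ to 3′ on the strand of the gene.
Cdkn2b, chr4:89310983-89311282, minus strand: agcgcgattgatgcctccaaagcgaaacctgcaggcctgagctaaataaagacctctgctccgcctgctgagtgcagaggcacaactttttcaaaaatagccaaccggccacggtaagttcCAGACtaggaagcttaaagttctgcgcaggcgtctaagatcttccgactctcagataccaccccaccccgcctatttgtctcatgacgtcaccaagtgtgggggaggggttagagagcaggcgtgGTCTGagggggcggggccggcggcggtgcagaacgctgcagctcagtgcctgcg
Cdkn2a Arf start, chr4:89294570-89294869, minus strand: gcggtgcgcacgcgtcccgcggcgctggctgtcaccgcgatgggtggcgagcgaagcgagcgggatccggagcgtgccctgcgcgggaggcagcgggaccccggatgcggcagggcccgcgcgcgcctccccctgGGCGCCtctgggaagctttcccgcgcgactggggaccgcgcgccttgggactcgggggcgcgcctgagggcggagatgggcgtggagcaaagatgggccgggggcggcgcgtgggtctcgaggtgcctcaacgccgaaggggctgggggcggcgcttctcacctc
Cdkn2a Ink4a start, chr4:89282143-89282442, minus strand: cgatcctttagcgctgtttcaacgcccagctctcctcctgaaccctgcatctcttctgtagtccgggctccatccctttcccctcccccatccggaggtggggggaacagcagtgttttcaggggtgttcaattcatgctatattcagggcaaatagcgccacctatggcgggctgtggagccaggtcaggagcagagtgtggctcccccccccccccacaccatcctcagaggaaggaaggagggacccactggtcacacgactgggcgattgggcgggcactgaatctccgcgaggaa
Cdkn1a, chr17:29093519-29093818, plus strand: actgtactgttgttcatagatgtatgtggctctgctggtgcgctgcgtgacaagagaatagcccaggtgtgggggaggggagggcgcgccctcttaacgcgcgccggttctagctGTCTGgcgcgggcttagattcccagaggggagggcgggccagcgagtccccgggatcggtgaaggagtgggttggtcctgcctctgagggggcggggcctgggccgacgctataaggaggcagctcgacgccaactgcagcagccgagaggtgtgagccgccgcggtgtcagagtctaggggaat
The Cdkn2b window held 2 copies of CAGAC on either strand, whose first bases lie 129 and 4 bases before the start, and the Cdkn1a window shown held 1 copy, 135 bases before it. The other Cdkn1a window, chr17:29090729-29091028 on the plus strand, is not shown and held 1 copy of CAGAC, 93 bases before its start. The other motifs searched were not in it. Neither Cdkn2a window held CAGAC, and GGCGCC stood once in the Arf window and in none of the other windows shown. Of 32851 mouse promoters of the same length, 49.6% held CAGAC on either strand and 11.9% held GGCGCC, so a match is common. GGGCGG, the GC box of Sp factors, stood once in the Cdkn2b window, 3 times in the Arf window, once in the Ink4a window and 2 times in the Cdkn1a window shown, and 35.7% of all promoters held it on either strand. CACGTG, the E-box that Myc and its partners bind, was in none of these 4 windows, against 7.2% of all promoters.

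Across the treatments the Ink4 genes Cdkn2b and Cdkn2a moved most. Cdkn1a, the most abundant CDK inhibitor mRNA, was not called in any comparison over all 8 libraries with group as the only term. Values are CPM, the authors' deposited counts scaled to the same total in every library, and differences are log2 fold changes of CPM + 1 with standard error from limma over all 16180 genes that reached 1 CPM in 2 libraries or more. All 7 genes passed this minimum, Cdkn1c through the inhibitor libraries alone and Cdkn2a through the other 3 groups. A gene is called at a Benjamini-Hochberg adjusted p under 0.05 in limma. In organoids with TGFb1 and BMP4, 5 of the 7 genes were called against inhibitor (Cdkn2b, Cdkn2a, Cdkn2d and Cdkn1b higher, Cdkn1c lower), where 46.0% of all genes tested were called (27.6% higher, 18.4% lower). With TGFb1 alone, 3 of 7 were called against inhibitor (Cdkn2b and Cdkn2a higher, Cdkn1c lower), against 40.0% of all genes (20.0% higher, 20.0% lower). With BMP4 and inhibitor, 1 of 7 was called against inhibitor, Cdkn2b, against 8.41% of all genes (5.49% higher, 2.91% lower). These 3 comparisons share the inhibitor libraries, so their results are not independent. In TGFb1 with BMP4 against TGFb1, limma called 0 of 7, where 2.01% of all genes were called (0.921% higher, 1.09% lower). There 2 of 7, Cdkn1b and Cdkn2d, had an unadjusted p under 0.05, and no other limma setting called any. In TGFb1 with BMP4 against BMP4 with inhibitor, 2 of 7 were called, Cdkn2a and Cdkn2b, both higher, against 28.2% of all genes (17.3% higher, 10.9% lower). The same 2 genes were called higher in TGFb1 against BMP4 with inhibitor, where 23.4% of all genes were called (12.0% higher, 11.4% lower). The share of members called was close to that of all genes in most of these comparisons, so the counts alone say little about CDK inhibitor genes.

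**Figure D1:**
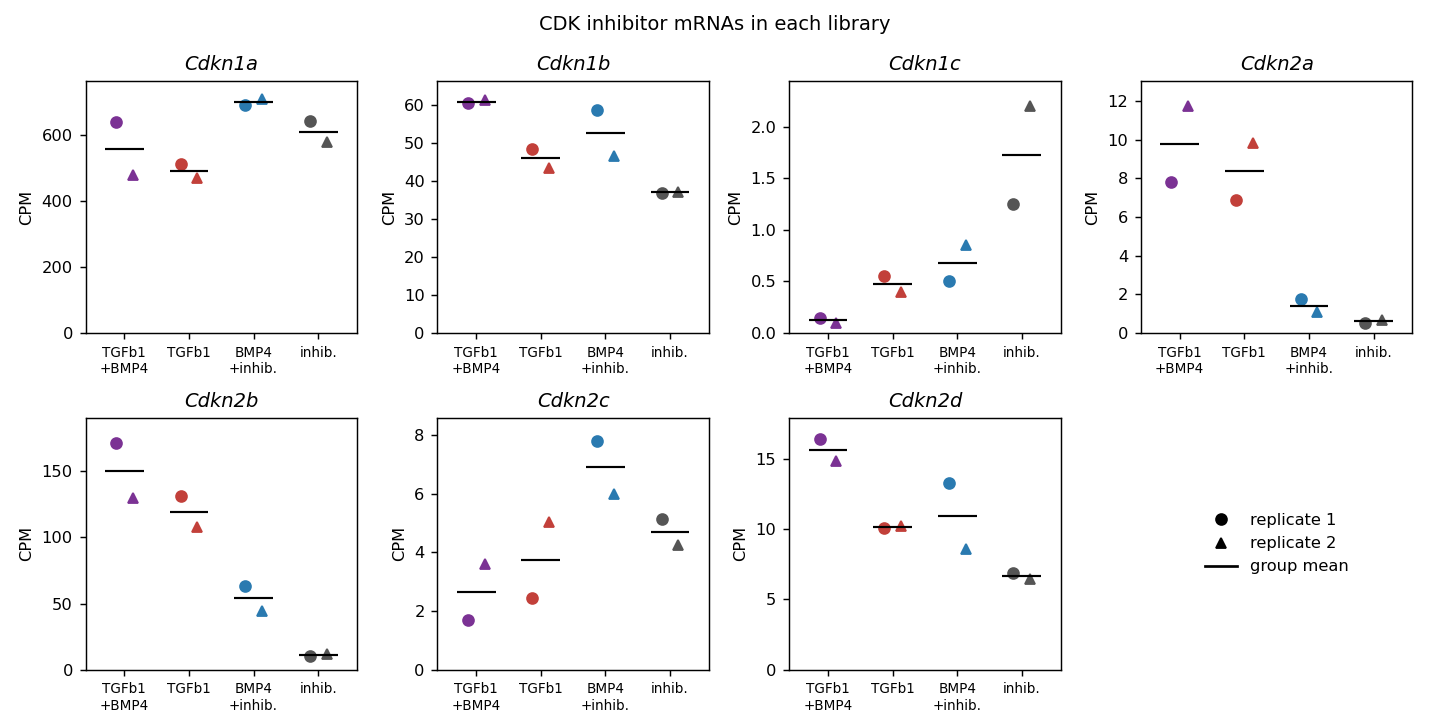
CPM of each CDK inhibitor gene (vertical axes, linear, each from 0) in the 8 libraries by treatment group, with circles for replicate 1, triangles for replicate 2 and bars for group means. Cdkn2b falls in steps from left to right down to 10.5 and 11.6 CPM in inhibitor organoids, Cdkn2a is high only in the TGFb1 groups, and Cdkn1c is highest in inhibitor organoids.

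Cdkn2b encodes p15Ink4b, an inhibitor of Cdk4 and Cdk6. It stood at 171 and 129 CPM in TGFb1 with BMP4, at 131 and 108 CPM in TGFb1, at 63.0 and 44.7 CPM in BMP4 with inhibitor, and at 10.5 and 11.6 CPM in inhibitor. Both libraries of each treated group were above both inhibitor libraries, both TGFb1 groups were above the BMP4 with inhibitor libraries, and the 2 TGFb1 groups overlapped each other. Group means were 150.4 ± 29.8, 119.5 ± 16.6, 53.8 ± 13.0 and 11.1 ± 0.777 CPM in the same order (SD, n = 2 each). Against inhibitor, the mean was 13.6 times as high in TGFb1 with BMP4, 10.8 times in TGFb1 and 4.85 times in BMP4 with inhibitor. In these organoids, as in all bulk samples, fewer cells of a type and less RNA per cell cannot be told apart.

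Cdkn2b rose by 3.63 ± 0.21 (limma adjusted p = 0.000146) in TGFb1 with BMP4 against inhibitor, as a log2 fold change of CPM + 1. It rose by 3.31 ± 0.21 (limma adjusted p = 0.000284) in TGFb1 and by 2.16 ± 0.21 (limma adjusted p = 0.0045) in BMP4 with inhibitor, both against inhibitor. Against BMP4 with inhibitor, its log2 fold change was 1.47 ± 0.21 (limma adjusted p = 0.00412) in TGFb1 with BMP4 and 1.15 ± 0.21 (limma adjusted p = 0.0113) in TGFb1. The last of these calls was lost without replicate 1 of TGFb1 (adjusted p = 0.0722, and 0.00238 to 0.0722 over all alternatives). Between TGFb1 with BMP4 and TGFb1 the log2 difference was 0.32 ± 0.21, with an adjusted p of 0.447 in limma. Within replicate numbers, the log2 difference from inhibitor was 3.90 and 3.37 in TGFb1 with BMP4, 3.52 and 3.11 in TGFb1, and 2.47 and 1.85 in BMP4 with inhibitor.

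On the log2 scale, the BMP4 difference in Cdkn2b was smaller with TGFb1 than with inhibitor, a result near the threshold. In CPM, the means were 150.4 with BMP4 and 119.5 without it beside TGFb1, and 53.8 and 11.1 beside inhibitor. No interaction was tested on the CPM scale. BMP4 went with a log2 difference of 0.32 in organoids with TGFb1 and of 2.16 in organoids with inhibitor, and the interaction between them was -1.84 ± 0.30 (limma adjusted p = 0.0475). Cdkn2b was the 1 gene of 7 called in the interaction, where 1.29% of all genes were called (0.297% higher, 0.989% lower). The interaction was -2.09 between the replicate 1 libraries and -1.59 between the replicate 2 libraries. With the replicate number as a block its adjusted p was 0.0103, but with median-of-ratios scaling it was 0.0542, without a filter on low values 0.117, and with 1 library left out it passed in 1 of 8 fits, over a range of 0.00667 to 0.197 in all alternatives. The other 6 genes had interaction estimates between -0.84 and 0.30 on the log2 scale, and none was called.

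Cdkn2a encodes p16Ink4a and Arf. It stood at 7.80 and 11.7 CPM in TGFb1 with BMP4, at 6.90 and 9.84 CPM in TGFb1, at 1.75 and 1.1 CPM in BMP4 with inhibitor, and at 0.5 and 0.7 CPM in inhibitor. All 4 libraries with TGFb1 were above all 4 with inhibitor, and the 2 TGFb1 groups overlapped. In inhibitor organoids it lay below the 1 CPM minimum in both libraries, so Cdkn2a entered the test through the other groups, and it was also called against inhibitor in both TGFb1 groups when no minimum was set (adjusted p = 0.00322 with BMP4 and 0.00584 without, over ranges of 0.000187 to 0.00885 and 0.000293 to 0.0158 in all alternatives). The floor of 3 reads is at 0.1 to 0.15 CPM in these libraries, an estimate that covers counting error only.

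Cdkn2a rose by 2.73 ± 0.27 (limma adjusted p = 0.000628) in TGFb1 with BMP4 and by 2.53 ± 0.27 (limma adjusted p = 0.00128) in TGFb1, as log2 fold changes of CPM + 1 against inhibitor. The ratios of the mean CPM were 16.3 and 13.9, larger than these fold changes because the added 1 CPM weighs on low values. Against BMP4 with inhibitor, its log2 fold change was 2.14 ± 0.27 (limma adjusted p = 0.00267) in TGFb1 with BMP4 and 1.95 ± 0.27 (limma adjusted p = 0.00448) in TGFb1. BMP4 with inhibitor differed from inhibitor by 0.59 ± 0.27 in Cdkn2a, with an adjusted p of 0.222 in limma. Both of its BMP4 with inhibitor libraries were above both inhibitor libraries, which in that direction held for 30.9% of all genes tested.

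Of the genes beside Cdkn2a and Cdkn2b, 4 were looked at and only Mtap, which encodes a methionine salvage enzyme, reached the 1 CPM minimum. Mtap had 52 and 45.7 CPM in TGFb1 with BMP4, 65.1 and 53.6 CPM in TGFb1, 20.9 and 27.6 CPM in BMP4 with inhibitor, and 26.7 and 31.4 CPM in inhibitor. Both TGFb1 groups were above both inhibitor groups with no overlap. Mtap rose by 0.73 ± 0.18 (limma adjusted p = 0.0169) in TGFb1 with BMP4 and by 1.00 ± 0.18 (limma adjusted p = 0.00678) in TGFb1, on the log2 scale against inhibitor. In BMP4 with inhibitor it did not follow Cdkn2b, with a log2 difference of -0.26 from inhibitor that was not called.

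Marker genes of other cell types moved with the treatments and with the replicate number. All 8 squamous epithelium markers were at 1 CPM or more in every library, with sums of 11798 to 21644 CPM. Markers within this sum moved in different directions. Krt4 had 323 and 459 CPM in TGFb1 with BMP4 and 3870 and 5200 CPM in TGFb1. In BMP4 with inhibitor it had 545 and 361 CPM, and in inhibitor 4097 and 2824 CPM. Krt14 had 5162 and 3923 CPM in TGFb1 with BMP4, against 2643 and 2856 in inhibitor. Epcam had 187 and 229 CPM in TGFb1 with BMP4, against 35.7 and 59.6 in inhibitor. The 8 fibroblast markers summed to 1430 and 6671 CPM in TGFb1 with BMP4, 1328 and 4620 in TGFb1, 122 and 479 in BMP4 with inhibitor, and 26.7 and 111 in inhibitor, in the same order of groups as Cdkn2b and Cdkn2a. They were higher in replicate 2 of every group, whereas Cdkn2b was lower in replicate 2 of the 3 treated groups, and Cdkn2a was higher in replicate 2 of both TGFb1 groups. Skeletal muscle markers summed to 102 and 532 CPM in TGFb1 with BMP4, against 11.9 and 65.3 in inhibitor. Smooth muscle markers summed to 48.3 and 239 CPM, against 8.59 and 28.5, but this sum is not separate from the skeletal muscle sum. Most of it was Des, which is in both lists, at 36.2 and 192 CPM, against 4.997 and 23.2. Acta2 and Tagln were also higher, Acta2 at 4.597 and 32.6 CPM, against 0.1 and 0.4. Myh11 and Cnn1 were at most 0.35 CPM in any library. Immune markers summed to 11.1 and 13.6 CPM in TGFb1 with BMP4, against 131 and 107 in inhibitor, with 1 of 5 at 1 CPM or more in both libraries of each group. Endothelial markers summed to at most 5.35 CPM and neural and glial markers to at most 3.1 CPM in any library. Whether the RNA of these markers came from other cells or from the epithelial cells was not tested. The part of other cells in the Cdkn2b and Cdkn2a differences was not tested either. The libraries held an estimated 28600000 to 43600000 reads.

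Cdkn2d encodes p19Ink4d, an inhibitor of Cdk4 and Cdk6 that is found in many differentiated cells. It stood at 16.4 and 14.8 CPM in TGFb1 with BMP4, at 10 and 10.2 CPM in TGFb1, at 13.2 and 8.60 CPM in BMP4 with inhibitor, and at 6.90 and 6.45 CPM in inhibitor. TGFb1 with BMP4 was above every other group, TGFb1 and BMP4 with inhibitor overlapped, and inhibitor was below them all. Cdkn2d rose by 1.11 ± 0.21 (limma adjusted p = 0.00645) in TGFb1 with BMP4 against inhibitor on the log2 scale, and its mean was 2.34 times as high. Log2 differences from inhibitor of 0.54 ± 0.21 in TGFb1 and 0.61 ± 0.21 in BMP4 with inhibitor were not called in limma (adjusted p = 0.0812 and 0.126). The first was called with the replicate block (adjusted p = 0.0427, and 0.0294 to 0.241 over all alternatives).

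Cdkn2c encodes p18Ink4c, whose mRNA is known to rise as cells pass through the cycle. It stood at 1.70 and 3.6 CPM in TGFb1 with BMP4, at 2.45 and 5.05 CPM in TGFb1, at 7.80 and 6.00 CPM in BMP4 with inhibitor, and at 5.15 and 4.25 CPM in inhibitor. It was lowest where Cdkn2b and Cdkn2a were highest, and BMP4 with inhibitor was above every other group. Cdkn2c had a log2 difference of -1.15 ± 0.36 in TGFb1 with BMP4 against BMP4 with inhibitor, which missed the limma threshold (adjusted p = 0.0538). It passed with the replicate block (adjusted p = 0.0315), with median-of-ratios scaling (adjusted p = 0.0347) and with both together (adjusted p = 0.0203). The limma adjusted p was at most 0.118 over the alternatives that leave out no single library. With 1 library left out, the log2 difference was -1.54 to -0.77, and most such fits did not call it. Against inhibitor its log2 difference was -0.69 ± 0.36 in TGFb1 with BMP4, -0.31 ± 0.36 in TGFb1 and 0.47 ± 0.36 in BMP4 with inhibitor, and none was called.

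Cdkn1a encodes p21Cip1, the CDK inhibitor best known as a p53 target and as a gene of keratinocyte differentiation. It stood at 639 and 478 CPM in TGFb1 with BMP4, at 512 and 469 CPM in TGFb1, at 692 and 709 CPM in BMP4 with inhibitor, and at 642 and 578 CPM in inhibitor. The TGFb1 libraries were below both inhibitor groups, BMP4 with inhibitor was above every other group, and TGFb1 with BMP4 overlapped TGFb1 and inhibitor. Against inhibitor the log2 difference was -0.14 ± 0.16 in TGFb1 with BMP4, -0.31 ± 0.16 in TGFb1 and 0.20 ± 0.16 in BMP4 with inhibitor, with limma adjusted p-values of 0.489, 0.156 and 0.46. The largest difference for Cdkn1a was -0.51 ± 0.16 in TGFb1 against BMP4 with inhibitor, which missed the limma threshold (adjusted p = 0.0595). It passed with the replicate block (adjusted p = 0.0196, and 0.0196 to 0.129 over the alternatives that leave out no single library). Most fits with 1 library left out and group as the only term did not call it, and the log2 difference was -0.58 to -0.45 over such fits. The log2 difference of Cdkn1a in TGFb1 with BMP4 against BMP4 with inhibitor was -0.34 ± 0.16 (limma adjusted p = 0.154), and it passed only with the block and median-of-ratios scaling together (adjusted p = 0.0355, and up to 0.566 over all alternatives).

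Cdkn1b encodes p27Kip1, whose protein level is set largely by degradation. It stood at 60.4 and 61.3 CPM in TGFb1 with BMP4, at 48.3 and 43.5 CPM in TGFb1, at 58.7 and 46.6 CPM in BMP4 with inhibitor, and at 36.8 and 37.2 CPM in inhibitor. All treated libraries were above both inhibitor libraries, and TGFb1 overlapped BMP4 with inhibitor. Cdkn1b rose by 0.70 ± 0.13 (limma adjusted p = 0.00673) in TGFb1 with BMP4 against inhibitor on the log2 scale, a mean 1.64 times as high. Differences of 0.30 ± 0.13 in TGFb1 and 0.49 ± 0.13 in BMP4 with inhibitor, on the same scale, were not called in limma (adjusted p = 0.116 and 0.0741). The second was called with the replicate block (adjusted p = 0.0322, and 0.0273 to 0.297 over all alternatives).

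Cdkn1c encodes p57Kip2 and lies in an imprinted region of chromosome 7, from 143458339 to 143461050 on the minus strand. It was the rarest of the 7, at 0.15 and 0.1 CPM in TGFb1 with BMP4, at 0.55 and 0.4 CPM in TGFb1, at 0.5 and 0.849 CPM in BMP4 with inhibitor, and at 1.25 and 2.2 CPM in inhibitor. Inhibitor was above every other group, TGFb1 overlapped BMP4 with inhibitor, and TGFb1 with BMP4 lay at or just above the floor of 3 reads. It passed the 1 CPM minimum in the inhibitor libraries alone, so its entry into the test was set by the group where it is high, and the call counts above hold it on that footing. Cdkn1c fell by 1.25 ± 0.23 (limma adjusted p = 0.00548) in TGFb1 with BMP4 and by 0.86 ± 0.23 (limma adjusted p = 0.0242) in TGFb1, on the log2 scale of CPM + 1 against inhibitor. With no minimum, the adjusted p-values were 0.00913 and 0.0341, over ranges of 0.00217 to 0.0259 and 0.0124 to 0.0972 in all alternatives. With 0.1 in place of 1 as the added value the differences were -2.98 and -1.63. The TGFb1 call was lost without either TGFb1 library (adjusted p up to 0.0972). The antisense gene Gm44732 overlaps Cdkn1c exons and followed it, at 0.1 and 0.05 CPM in TGFb1 with BMP4, 0.3 and 0.15 in TGFb1, 0.2 and 0.4 in BMP4 with inhibitor, and 0.6 and 0.899 in inhibitor. The strand setting of the counting was not given in the sources used here, so reads of the pair may not have been told apart.

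**Figure D2:**
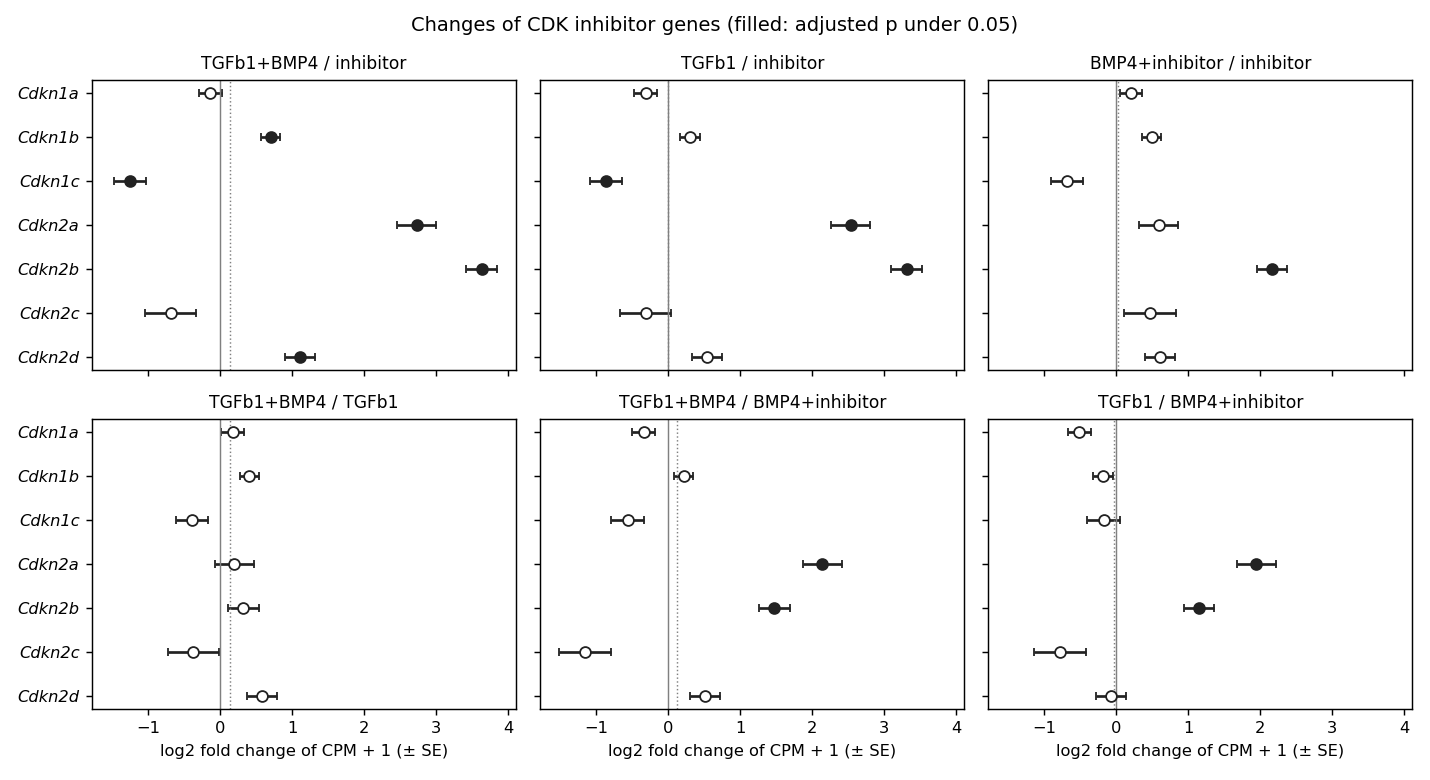
Log2 fold change of CPM + 1 (horizontal axes) with its standard error for the 7 genes in the 6 comparisons of groups, where filled circles have an adjusted p under 0.05, the solid line is 0 and the dotted line is the median of all genes tested. Cdkn2b and Cdkn2a lie farthest to the right wherever a TGFb1 group is set against an inhibitor group, and no circle is filled for TGFb1 with BMP4 against TGFb1.

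The median log2 difference of all genes was 0.13 in TGFb1 with BMP4 against inhibitor and 0.01 under median-of-ratios scaling, a shift of the whole table. Relative to that median, the log2 differences of the called genes in this comparison were 3.50 for Cdkn2b, 2.60 for Cdkn2a, 0.98 for Cdkn2d, 0.57 for Cdkn1b and -1.39 for Cdkn1c. Of all genes called there, 60.0% were higher, against 48.3% with that scaling. In TGFb1 with BMP4 against BMP4 with inhibitor the shares were 61.4% and 48.2%, and against TGFb1 they were 45.7% and 29.6%. The median of the 7 genes was 0.70 in TGFb1 with BMP4, 0.30 in TGFb1 and 0.49 in BMP4 with inhibitor against inhibitor, where the medians of all genes were 0.13, -0.01 and 0.02. In BMP4 with inhibitor, all 7 genes had libraries that did not overlap those of inhibitor, 6 of them higher and Cdkn1c lower, against 30.9% and 27.0% of all genes. In both TGFb1 groups, 4 were higher than inhibitor without overlap and 2 were lower, against 44.9% and 31.6% of all genes with BMP4 and 37.9% and 38.6% without. In TGFb1 with BMP4 against TGFb1, 2 genes were higher without overlap and 1 was lower (38.3% and 14.4% of all genes). In TGFb1 with BMP4 against BMP4 with inhibitor, 4 were higher and 3 lower (39.6% and 24.2%), and in TGFb1 against BMP4 with inhibitor 2 were higher and 2 lower (31.1% and 33.7%).

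To compare levels between genes, CPM was divided by the exon length of each gene in kb. Per kb, Cdkn1a led in every group, at 157 ± 32.1, 138 ± 8.52, 197 ± 3.32 and 172 ± 12.8 CPM per kb in TGFb1 with BMP4, TGFb1, BMP4 with inhibitor and inhibitor (SD, n = 2 each). Cdkn2b came second in the treated groups at 108 ± 21.4, 86.0 ± 11.9 and 38.7 ± 9.33 CPM per kb in the same order. In inhibitor organoids Cdkn2b, at 7.98 ± 0.559 CPM per kb, was level with Cdkn1b, at 8.13 ± 0.0545, within their spread. Cdkn1c was last in every group. The summed Ink4 level was 141 and 114 CPM per kb in TGFb1 with BMP4, 108 and 94.3 in TGFb1, 58.1 and 40.8 in BMP4 with inhibitor, and 14.3 and 14.7 in inhibitor. The Ink4 share of all CDK inhibitor mRNA was thus 42.2 and 43.5% in TGFb1 with BMP4, 41.0 and 39.9% in TGFb1, 21.8 and 16.2% in BMP4 with inhibitor, and 7.02 and 7.85% in inhibitor. Cdkn2b made up 87.5 and 81.7% of the Ink4 level in TGFb1 with BMP4 and 53.0 and 57.2% in inhibitor. Cdkn1a made up 90.9 to 95.4% of the Cip/Kip level in all 8 libraries.

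**Figure D3:**
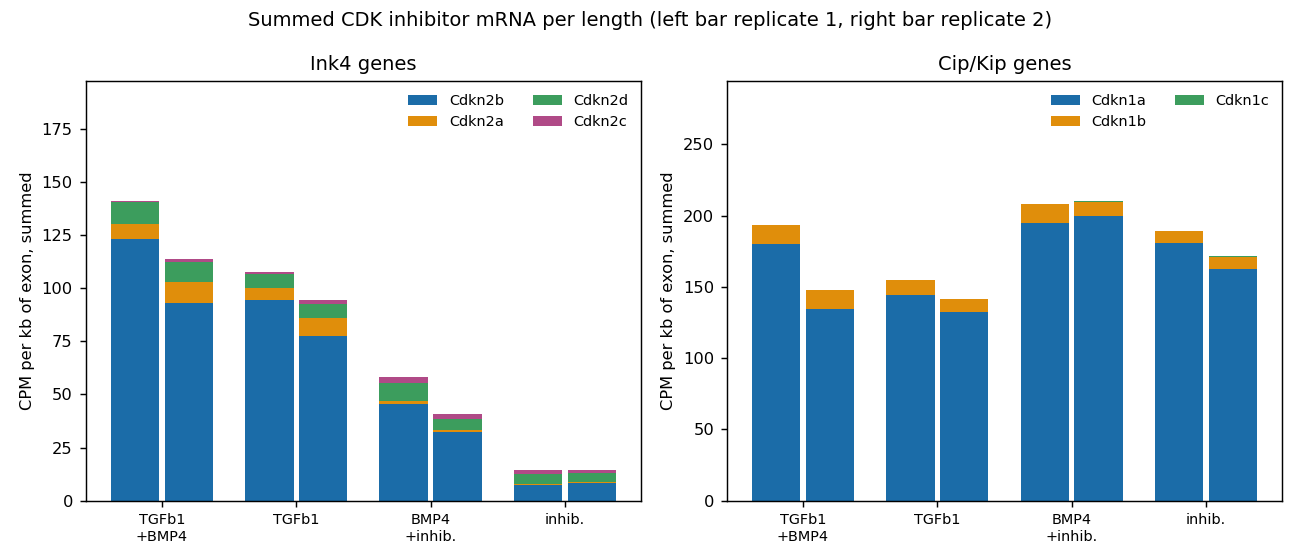
Summed level in CPM per kb of exon (vertical axes from 0) of the Ink4 genes on the left and the Cip/Kip genes on the right, with a bar for each library in the 4 groups and colours for genes. The Ink4 sum lies between 94.3 and 141 in the TGFb1 groups and at 14.3 and 14.7 in inhibitor, while the Cip/Kip sum, nearly all Cdkn1a, lies between 142 and 210.3 in all libraries.

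The counts of listed genes that follow are descriptions, to be read against the shares of all genes called. Against inhibitor these were 27.6% higher and 18.4% lower in TGFb1 with BMP4, 20.0% higher and 20.0% lower in TGFb1, and 5.49% higher and 2.91% lower in BMP4 with inhibitor. With the replicate block more of all genes were called, 5696 higher and 3827 lower, 4318 and 4274, and 1909 and 1593 in the same order, and no listed gene lost its call.

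Of 5 genes for the kinases and D-type cyclins that Ink4 proteins act on, 1 rose and 1 fell in TGFb1 with BMP4 against inhibitor (median log2 difference -0.42, all genes 0.13), and the same held in TGFb1 (median -0.23, all genes -0.01), while limma called 0 in BMP4 with inhibitor (median -0.12, all genes 0.02), and 1 lower with the block, Ccnd1, for cyclin D1. Ccnd3, which encodes cyclin D3, had 119.5 and 116 CPM in TGFb1 with BMP4, 103 and 98.1 CPM in TGFb1, 66.5 and 57.8 CPM in BMP4 with inhibitor, and 53.2 and 52.0 CPM in inhibitor. It rose by 1.15 ± 0.10 (limma adjusted p = 0.000453) in TGFb1 with BMP4 against inhibitor on the log2 scale. Ccnd2, for cyclin D2, had 126 and 187 CPM in TGFb1 with BMP4, 213 and 219 CPM in TGFb1, 302 and 548 CPM in BMP4 with inhibitor, and 424 and 463 CPM in inhibitor. It fell by 1.53 ± 0.30 (limma adjusted p = 0.00737) in TGFb1 with BMP4 and by 1.03 ± 0.30 (limma adjusted p = 0.0329) in TGFb1, against inhibitor. Cdk4 and Cdk6 had log2 differences of -0.10 and -0.45 from inhibitor in TGFb1 with BMP4, neither called, although Cdk6 passed with the block (adjusted p = 0.0456). Cdk6 was called lower in TGFb1 with BMP4 against BMP4 with inhibitor (-0.58 ± 0.17, limma adjusted p = 0.0495), a call lost with median-of-ratios scaling (adjusted p = 0.051), and Ccnd1 was called higher in TGFb1 against BMP4 with inhibitor (1.11 ± 0.18, limma adjusted p = 0.00678).

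Most of the listed genes of DNA replication and mitosis, and fewer of the cyclins and kinases of later phases, were called lower in TGFb1 with BMP4 against inhibitor. Of 7 genes for cyclins E, A and B and their kinases, 3 fell in TGFb1 with BMP4 against inhibitor (Ccnb1, Ccna2 and Cdk1, median of the 7 -1.25, all genes 0.13), while in TGFb1 1 rose, Ccne1, and limma called 0 in BMP4 with inhibitor. Ccnb1, for the mitotic cyclin B1, had 0.600 and 3.85 CPM in TGFb1 with BMP4, against 16.1 and 13.5 CPM in inhibitor. Not all members were lower, and Cdk2, the kinase of cyclins E and A, averaged 35.5 ± 1.31 CPM in TGFb1 with BMP4 and 27.9 ± 1.31 CPM in inhibitor (SD, n = 2 each), a difference that was not called. Of 25 replication and mitosis genes, 17 fell in TGFb1 with BMP4 against inhibitor (median -1.57, all genes 0.13) and 6 fell in TGFb1 (median -0.86, all genes -0.01), and none rose. Rrm2, a subunit of ribonucleotide reductase, averaged 19.2 ± 0.423 CPM in TGFb1 with BMP4 and 13.4 ± 2.65 CPM in inhibitor (SD, n = 2 each) and was not called. In BMP4 with inhibitor limma called 0 of 25 (median 0.06, all genes 0.02). With the replicate block these counts were 18 and 10 lower and 1 higher. Cdc20, an activator of mitotic exit, had 1.35 and 3.6 CPM in TGFb1 with BMP4, 3.55 and 11 CPM in TGFb1, 27.1 and 27.5 CPM in BMP4 with inhibitor, and 49.6 and 41.1 CPM in inhibitor, and fell by 3.81 ± 0.49 (limma adjusted p = 0.00158) in TGFb1 with BMP4 against inhibitor. Mcm3, part of the replication helicase, fell by 2.25 ± 0.38 (limma adjusted p = 0.00448) in the same comparison. The fibroblast marker sums given above moved the other way over the same groups, and their part in these differences was not tested. Against BMP4 with inhibitor, 13 of the 25 fell in TGFb1 with BMP4 and 4 in TGFb1 (17 and 9 with the block).

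**Figure D4:**
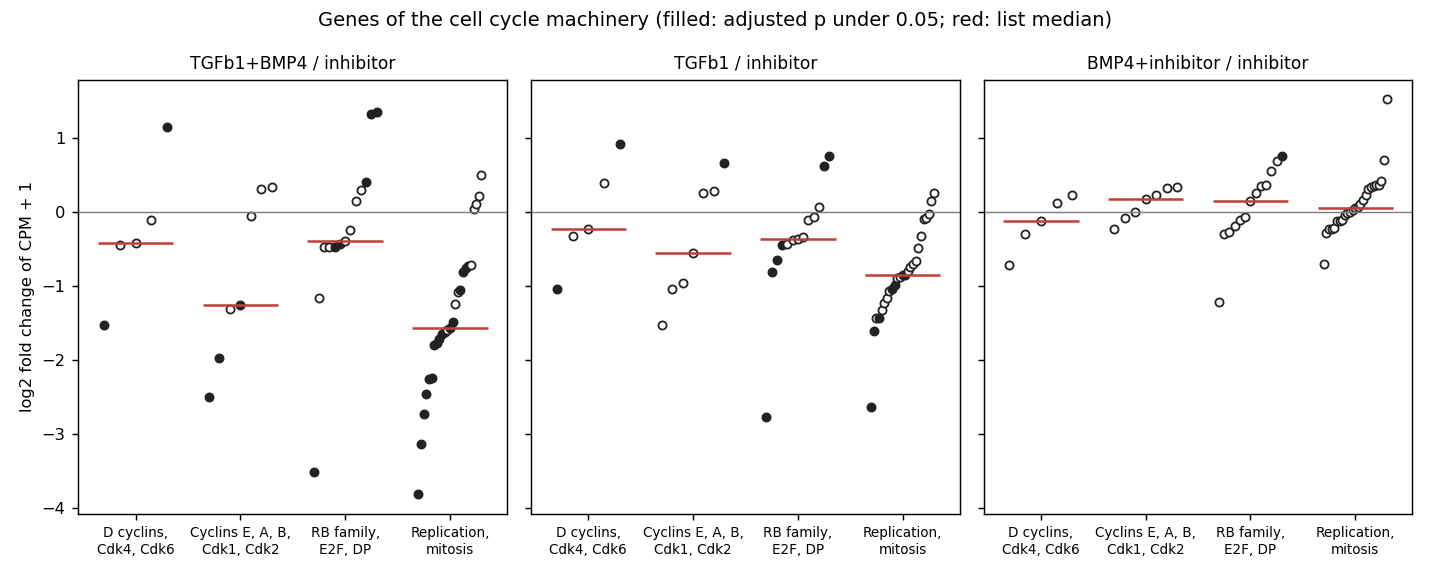
Log2 fold change of CPM + 1 against inhibitor (vertical axis) of genes for D-type cyclins and their kinases, later cyclins and kinases, RB, E2F and DP proteins, and DNA replication and mitosis, in TGFb1 with BMP4, TGFb1 and BMP4 with inhibitor, where filled circles have an adjusted p under 0.05 and red lines are list medians. The replication and mitosis genes have medians of -1.57, -0.86 and 0.06 in these panels.

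Among 13 RB and E2F genes, 3 rose and 3 fell in TGFb1 with BMP4 against inhibitor (2 and 4 with median-of-ratios scaling), 2 rose and 4 fell in TGFb1, and 1 rose in BMP4 with inhibitor (0 with that scaling, 2 with the replicate block). Rbl2, for the RB relative p130 of resting cells, had 65.3 and 67.2 CPM in TGFb1 with BMP4, 41.3 and 37.4 CPM in TGFb1, 44.4 and 31.5 CPM in BMP4 with inhibitor, and 25.1 and 25.2 CPM in inhibitor, and rose by 1.36 ± 0.17 (limma adjusted p = 0.00135) in TGFb1 with BMP4 against inhibitor. E2f7, a repressor made in S phase, fell by 3.52 ± 0.52 (limma adjusted p = 0.00254) in that comparison and fell by 2.77 ± 0.52 (limma adjusted p = 0.00775) in TGFb1. Rb1 was called higher in BMP4 with inhibitor (0.77 ± 0.17 on the log2 scale, limma adjusted p = 0.042, and 0.0649 with median-of-ratios scaling).

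Of 16 factors known to act on Cdkn2b or Cdkn1a transcription, 5 rose and 4 fell in TGFb1 with BMP4 against inhibitor (4 and 4 with median-of-ratios scaling), 5 rose and 5 fell in TGFb1, and limma called 0 in BMP4 with inhibitor (1 higher with the block). Myc, which represses both genes with its partner Zbtb17, had 93.2 and 73.4 CPM in TGFb1 with BMP4, 91.9 and 75.0 CPM in TGFb1, 113 and 208 CPM in BMP4 with inhibitor, and 217 and 310.5 CPM in inhibitor. Myc fell by 1.64 ± 0.32 (limma adjusted p = 0.0071) in TGFb1 with BMP4 against inhibitor. Klf4, a differentiation factor known to act on Cdkn1a, fell by 2.45 ± 0.20 (limma adjusted p = 0.000372) in that comparison and by 1.94 ± 0.20 (limma adjusted p = 0.0012) in TGFb1. Trp63, the p53 relative of basal epithelial cells, fell by 0.54 ± 0.11 (limma adjusted p = 0.00924) with BMP4 and by 0.97 ± 0.11 (limma adjusted p = 0.00162) without. Foxo1, a partner of SMADs, rose by 0.76 ± 0.15 (limma adjusted p = 0.00679) in TGFb1 with BMP4.

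Of 12 Polycomb genes and other repressors of the Cdkn2a locus, 3 rose and 2 fell in TGFb1 with BMP4 against inhibitor (1 and 2 with median-of-ratios scaling), 4 fell in TGFb1 (1 higher and 6 lower with the block), and limma called 0 in BMP4 with inhibitor (2 higher with the block). Ezh2 and Suz12, core parts of the complex that marks silent chromatin, fell by 0.60 ± 0.11 and 0.67 ± 0.11 (limma adjusted p = 0.00578 and 0.00385) in TGFb1 with BMP4, and by 0.73 ± 0.11 each (limma adjusted p = 0.00373 for both) in TGFb1. Id1, a helix-loop-helix repressor and BMP target, moved apart between the TGFb1 groups, at 213 and 157 CPM in TGFb1 with BMP4, 23.8 and 51.7 CPM in TGFb1, 231 and 219 CPM in BMP4 with inhibitor, and 88.4 and 85.3 CPM in inhibitor. Its log2 difference between TGFb1 with BMP4 and TGFb1 was 2.35 ± 0.33 (limma adjusted p = 0.0273).

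Of 20 p53 target genes other than Cdkn1a, 6 rose and 7 fell in TGFb1 with BMP4 against inhibitor, 4 rose and 6 fell in TGFb1, and 3 fell in BMP4 with inhibitor (2 higher and 8 lower with the block). Pmaip1, for the cell death protein Noxa, rose by 1.49 ± 0.13 (limma adjusted p = 0.000387) and Mdm2 by 1.00 ± 0.09 (limma adjusted p = 0.000475) in TGFb1 with BMP4, while Btg2, an antiproliferative gene, fell by 1.55 ± 0.24 (limma adjusted p = 0.0032). Of 7 genes of p27 turnover, 3 rose and 2 fell in TGFb1 with BMP4 against inhibitor (1 and 2 with median-of-ratios scaling), 1 rose and 1 fell in TGFb1, and 1 rose in BMP4 with inhibitor. Skp1a, a part of the SCF ubiquitin ligase, rose by 1.29 ± 0.14 (limma adjusted p = 0.000781) in TGFb1 with BMP4 and by 1.68 ± 0.14 (limma adjusted p = 0.00253) in BMP4 with inhibitor. Skp2, the subunit that recognises p27, had a log2 difference of -0.31 from inhibitor in TGFb1 with BMP4 and was not called. Of 9 genes around Cdkn1c, 8 were tested, and 2 rose and 1 fell in each TGFb1 group against inhibitor (1 and 1 in TGFb1 with BMP4 with median-of-ratios scaling). With the block 5 rose and 1 fell in TGFb1 with BMP4, 4 rose and 1 fell in TGFb1, and 1 rose and 1 fell in BMP4 with inhibitor, where 1 fell without it. Phlda2, an imprinted growth inhibitor, fell by 2.25 ± 0.20 (limma adjusted p = 0.000436) in TGFb1 with BMP4, by 1.47 ± 0.20 (limma adjusted p = 0.00262) in TGFb1 and by 1.43 ± 0.20 (limma adjusted p = 0.0109) in BMP4 with inhibitor. Kcnq1 and Cd81 went the other way. Kcnq1 rose by 2.97 ± 0.24 (limma adjusted p = 0.00033) in TGFb1 with BMP4 and by 3.61 ± 0.24 (limma adjusted p = 0.000293) in TGFb1. It was at 0 and 0.1 CPM in inhibitor, so it entered the test through the TGFb1 groups. Cd81 rose by 0.56 ± 0.11 (limma adjusted p = 0.00793) and 0.74 ± 0.11 (limma adjusted p = 0.00375) in the same order, the first lost with median-of-ratios scaling.

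Genes whose profile over the 8 libraries was most like that of a called member were found among 11662 genes at 5 CPM or more, by the root mean square difference of log2(CPM + 1) centred on each gene's own mean. Closest to Cdkn2b were Id2, Cited2 and Pla2g16, at 0.203, 0.206 and 0.225, where the profile of Cdkn2b itself had a spread of 1.44. Id2 averaged 143 CPM in TGFb1 with BMP4, 95.8 CPM in TGFb1, 55.2 CPM in BMP4 with inhibitor and 8.89 CPM in inhibitor. Closest to Cdkn2a, with a spread of 1.21, were Maged1, Acot11 and Creb3l2, at 0.111, 0.132 and 0.144. Closest to Cdkn2d, with a spread of 0.422, were Pccb, Ankmy2 and Gpr137, at 0.068, 0.073 and 0.087. Closest to Cdkn1b, with a spread of 0.273, were Zfp324, Cic and Ndrg3, at 0.052, 0.056 and 0.057. Closest to Cdkn1c, with a spread of 0.479, were Eif4ebp1, Emp2 and Snai2, at 0.120, 0.121 and 0.133. The added 1 CPM shrinks the profiles of low genes, so likeness to Cdkn1c and Cdkn2a holds on this scale only. In mean CPM, Cdkn1c had 0.125 in TGFb1 with BMP4 and 1.72 in inhibitor, where Eif4ebp1 had 80.9 and 194. Cdkn2a had 9.77 and 0.6 in the same order, where Maged1 had 212 and 31.6.

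The authors' deposited table gives 1 test per gene over all groups, and 2 of the 7 genes have an FDR under 0.05 there, Cdkn2b (0.0125) and Cdkn2a (0.0144), against 8.79% of all its genes. That share is over all 52636 genes, of which 32344 were above 0 in any library. It is therefore not comparable with the shares of tested genes given above. In the authors' deposited table, Cdkn1c has an FDR of 0.0511, Cdkn2d 0.163, Cdkn1b 0.180, Cdkn2c 0.279 and Cdkn1a 0.467.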

How the data were processed

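RNA of 8 libraries was sequenced on an Illumina NovaSeq after preparation with the Ovation Solo kit, per the labels' protocols. The submitters' processing notes name HTSeq, Cell Ranger 3.1.0, STAR 2.5.3a and edgeR, with GRCm38 (mm10) as the build. Their roles, the annotation, filters and strand setting were not given in the sources used here. Whole numbers in the deposited table are a score, since they behave like read counts that the authors scaled to 1 common total (20011215 to 20013233 per library) and rounded up, so values near 0.1 CPM are imprecise. The authors' CPM values are these values over their column totals, which was recomputed to within 0.0005. The authors' deposited log2 fold changes, p-values and FDR were read only for the sentences that name their table. Depth was estimated from the steps of low values, and floors of 3 reads cover counting error only.

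The CPM values were analysed as log2(CPM + 1) with limma 3.58.1 in R 4.3.3 (trend, two-sided), with group as the only term over all 8 libraries and 4 residual degrees of freedom. A gene entered if it reached 1 CPM in 2 libraries or more, which 16180 did. Adjustment was by Benjamini-Hochberg, separately in 7 comparisons. This scale understates fold changes of low genes. The limma fit and the depth estimate were tested on simulated data, and the other steps were not. Gene positions and exon lengths came from GENCODE M21 (GRCm38), where 52403 gene IDs (99.56%) were found, and promoters from RefSeq.

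Named genes were the 7 members, up to 4 called genes per list and comparison by smallest adjusted p, from which only some are printed, and the 3 genes most like each called member. Gm and Rik names were left out of the last. The members and the lists were chosen with earlier results of these data known. What libraries of 1 replicate number share is not said in the labels. Their deviations from the group means had correlations of 0.32 to 0.74 in the 6 pairs of groups, so the numbers were taken to pair libraries. The blocked value is given where it changes a call of the 7 genes. For lists it is given where it moves the total called against inhibitor by over 1.5 times, and not for every other comparison. Alternatives were median-of-ratios scaling, a pseudocount of 0.1, no filter, 1 CPM in 4 libraries, the replicate block, the compared groups alone and each library left out. The block with median-of-ratios scaling was added after seeing the data.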

Additional observations from a re-analysis of the deposited data

Results flagged for a closer look

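Cdkn2b was set apart because its log2 difference that went with BMP4 was smaller with TGFb1 than with inhibitor. The interaction was -1.84 ± 0.30 on the log2 scale (limma adjusted p = 0.0475), from a BMP4 difference of 0.32 beside TGFb1 and of 2.16 beside inhibitor. It was negative in both replicate numbers, at -2.09 and -1.59. The call is near the threshold, and it was lost with median-of-ratios scaling (limma adjusted p = 0.0542) and without a filter on low values (limma adjusted p = 0.117).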

How the results depend on the processing

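Of 704 values of single genes under an alternative, 654 kept their direction and side of the threshold, 22 passed it, 12 missed it and 16 changed sign, none of the last called. Cdkn2b and Cdkn2a kept their calls against inhibitor in both TGFb1 groups under every alternative run, and so did Cdkn1b, Cdkn2d and, wherever it was tested, Cdkn1c in TGFb1 with BMP4. Cdkn1c was not tested under the stricter filter or without either inhibitor library.

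In BMP4 with inhibitor against inhibitor, 1 gene was called, but 2 with the replicate block and 2 with the block and scaling, the second being Cdkn1b, and 1 to 3 with a library left out. In TGFb1 with BMP4 against BMP4 with inhibitor, 2 were called, but 4 with the block and scaling. Beside those 2, Cdkn2c was also called lower with median-of-ratios scaling (limma adjusted p = 0.0347) and with the replicate block. Cdkn1c was called lower there at a pseudocount of 0.1 (limma adjusted p = 0.0321), and calls also varied with a library left out. In TGFb1 against BMP4 with inhibitor, 2 were called, and 1 to 3 with a library left out. In the interaction, 1 was called, but 0 with median-of-ratios scaling, 0 with no filter and 0 to 1 with a library left out, the call remaining only without replicate 2 of BMP4 with inhibitor. Among the 7 genes, the block changed no call beyond those named here and in the report. Its list counts against inhibitor stand in the report where a list's total called moved by over 1.5 times. In other comparisons more lists moved with the block than are given. For example, 4 of 20 p53 targets were called higher in the interaction with it and 0 without it. The cause was not tested.

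Signs changed for Cdkn1c in the interaction at a pseudocount of 0.1 (-0.13), and otherwise only with a library left out. These ranges were -0.24 to 0.18 for Cdkn1a, -0.25 to 0.076 for Cdkn1b and -0.32 to 0.25 for Cdkn2d in the interaction, and -0.036 to 0.38 for Cdkn1a, -0.073 to 0.46 for Cdkn2a and -0.78 to 0.031 for Cdkn2c in TGFb1 with BMP4 against TGFb1. They were -0.72 to 0.090 for Cdkn2c in TGFb1 and -0.35 to 0.069 for Cdkn1a in TGFb1 with BMP4, both against inhibitor, and -0.35 to 0.22 for Cdkn2d in TGFb1 against BMP4 with inhibitor.

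Over all genes, counts called moved by more than 1.5 times. They were 7449 in TGFb1 with BMP4 against inhibitor (4429 to 9523 over alternatives), 6471 in TGFb1 against inhibitor (3079 to 8592) and 1360 in BMP4 with inhibitor against inhibitor (170 to 3502). They were 326 in TGFb1 with BMP4 against TGFb1 (0 to 1121), 4556 in TGFb1 with BMP4 against BMP4 with inhibitor (2433 to 6658), 3779 in TGFb1 against BMP4 with inhibitor (1552 to 5764) and 208 in the interaction (0 to 1166). Depth limits the precision of Cdkn1c in TGFb1 with BMP4, whose 0.15 and 0.1 CPM lie at or just above the floor of 3 reads.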
